A study of Mus musculus with 2 samples.

Results

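Ribosome biogenesis and RNA polymerase I were examined through 59 genes, out of 22797 genes named on the array, in gastrocnemius muscle of mice with and without a plaster cast. The genes were chosen by name only, from gene names beginning Nop, Nol, Utp, Rrp or Polr1, from Imp3 and Imp4, and from a short list of nucleolar proteins and Myc. The naming rule uses no measured value, although it was written with earlier results of these arrays known. The genes are carried by 83 probes. Both groups were male C57BL/6 mice aged 9 weeks, with no transgene named in the labels. In the cast group the hindlimb had been held in plaster for 11 days, and the control group had no cast. According to the labels 6 mice per group were pooled, so each group is 1 pool of RNA on 1 array. There are no replicates, hence no test, and a difference below is a difference between 2 arrays.

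Ribosomes are built in the nucleolus, where RNA polymerase I copies the ribosomal DNA into a long precursor RNA. Small nucleolar ribonucleoproteins (snoRNPs) methylate and pseudouridylate this precursor, and separate sets of assembly factors then cut and fold it into the small and the large subunit. The pathway is costly to the cell and is known to follow growth signals, with Myc as a main activator. In skeletal muscle, ribosome content is known to be a determinant of protein synthesis capacity, and loading is known to raise it.

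Of the 59 genes, 54 were well above background on both arrays, which is called measured here. Values are spot intensities scaled so that the 75th percentile of each array is 100, and ratios are log2 of cast over control. The median over the 54 genes was 0.21 (quartiles 0.042 and 0.36), beside -0.029 (quartiles -0.28 and 0.22) over all 14172 measured genes. Of the 54, 44 lay above 0 (81.5%), against 46.8% of all measured genes. The shift was made of small differences. The cast array exceeded the control by 1.5-fold or more for 5 members, Nol3, Ddx21, Ncl, Wdr43 and Nop14, where 6.96% of all measured genes passed the same size. A ratio of at least 1.5-fold lower was seen for 1 member, Pes1, against 8.29% of all genes. At 2-fold, Nol3 was the member on the higher side (2.23% of all genes) and Pes1 the member on the lower side (2.15% of all genes). These counts are small on both sides and near the background share on the higher side, so the members differed from the whole array mainly in how many small ratios had a positive sign.

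**Figure D1:**
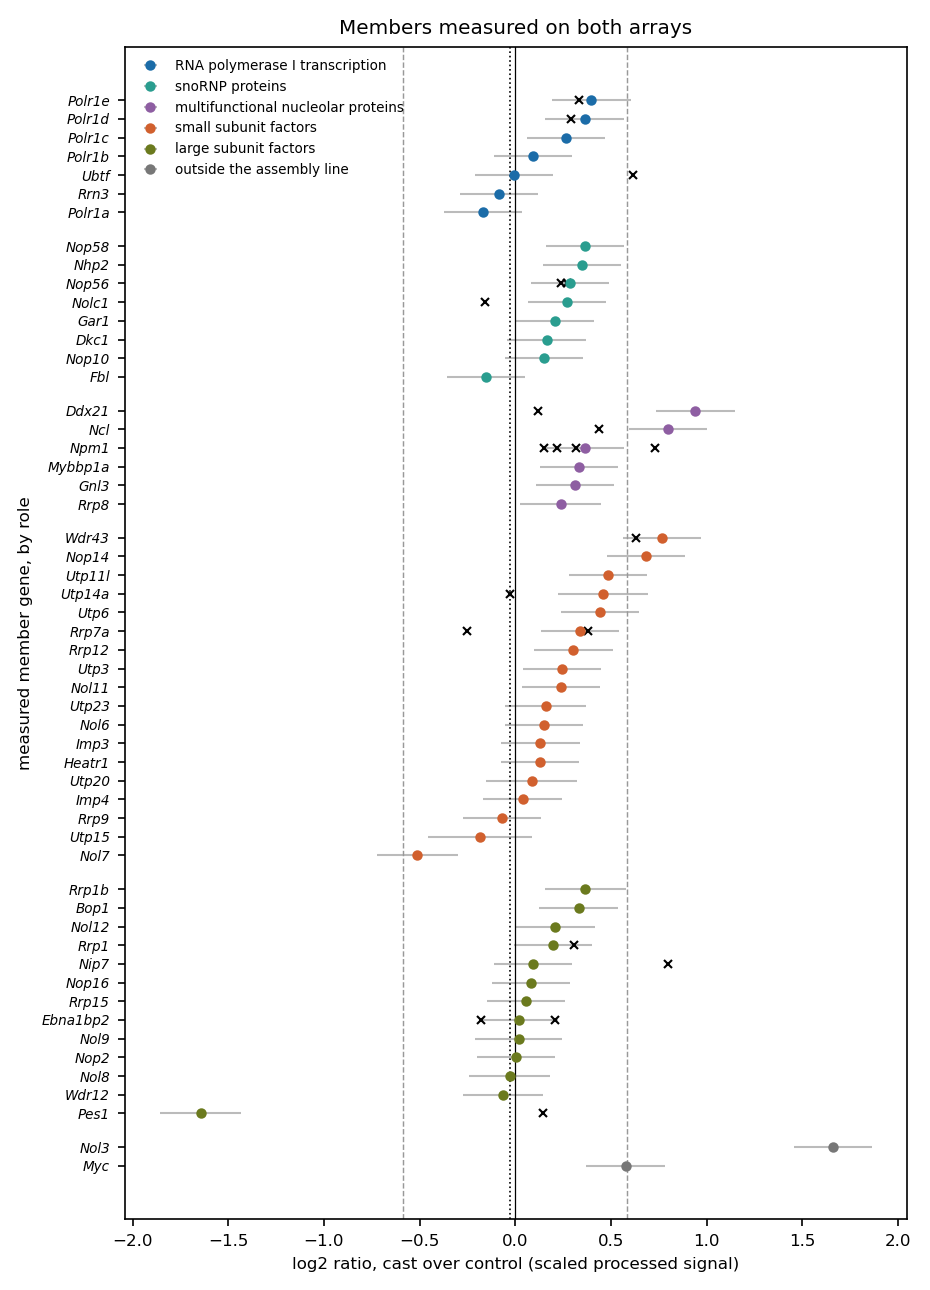
Log2 ratio of cast over control (horizontal axis) for each of the 54 measured genes (rows), coloured by role, with the group of Nol3 and Myc called outside the assembly line. Circles are the brightest probe of a gene, bars are the software's 1-error estimate, crosses are other measured probes, dashed lines mark 1.5-fold, the dotted line is the median of all measured genes, and 44 circles lie above 0.

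The sign of a ratio depends on how the arrays are scaled. Of the 44 genes above 0, Ebna1bp2 and Nop2 moved below 0 with quantile or intensity-dependent scaling, and of the 10 below 0, 8 moved above 0 under at least 1 scaling, the exceptions being Nol7 and Pes1. Scaling on spike-in controls moved the median of all genes to 0.32, and no scaling moved it to 0.31. With these scalings 26 and 23 members were at least 1.5-fold higher, while 24.2% and 23.4% of all genes were at least 1.5-fold higher and 2.63% and 2.72% at least 1.5-fold lower. Relative to the median of all genes, the members' median was 0.24 higher under the 75th percentile, median, spike-in and no scaling, 0.22 higher under quantile and 0.21 higher under intensity-dependent scaling.

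**Figure D2:**
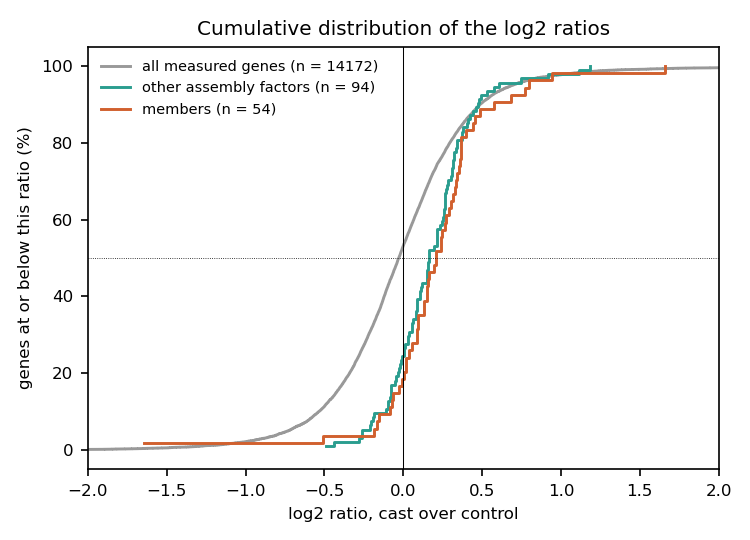
Cumulative share of genes (vertical axis, percent) at or below each log2 ratio of cast over control (horizontal axis), for the members, for 94 other assembly factors and for all measured genes. The members' curve lies to the right of that of all genes in the middle of the range, with medians of 0.21, 0.16 and -0.029.

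The 7 genes of RNA polymerase I transcription did not lie on 1 side of 0, with 4 above, 3 below and a median of 0.094. None reached 1.5-fold on its brightest probe. Ubtf, counted below 0 by its brighter probe, passed 1.5-fold on its dimmer one (0.61). Polr1a, the largest catalytic subunit, had a scaled intensity of 487 on the control and 434 on the cast array, a ratio of -0.17. Polr1b, which builds the active centre together with Polr1a, had 97.5 and 104 (0.094). The catalytic pair therefore lay close to 0, on opposite sides.

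Polr1c and Polr1d, which form an assembly platform shared with RNA polymerase III, were both higher on the cast array. Polr1d had 587 and 755 (0.36), and its other probe gave 0.29. Polr1e, a subunit of the polymerase I-specific dimer, had 41.4 and 54.5 (0.40), with 0.33 from its other probe. Polr1c was spotted 10 times on each array, which gives the closest look at spot error among the members. Its raw intensity ranged from 696 to 807 on the control array and from 1098 to 1235 on the cast array. The spots of the arrays thus did not overlap before scaling. That raw gap includes a difference in brightness between whole arrays, since the percentile used for scaling was 0.338 higher in log2 on the cast array. Whether spots of other replicated probes overlapped was not tested. After scaling the mean ratio was 0.27 ± 0.055 (SD over 10 spot pairs), between 0.16 and 0.32. With spots not paired by position, the SD of the ratio was 0.092. Both spreads are those of spots and hold nothing of the spread between mice.

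Rrn3, the factor that makes the polymerase competent to start, had 478 and 450 (-0.087). Ubtf, the architectural protein of ribosomal DNA, had 4440.0 and 4416 on its brighter probe, a ratio of -0.0078. Its dimmer probe had 68.6 and 105 (0.61), so the probes gave different answers. The first 30 bases of the probes are shown because the brighter one opens with a simple repeat, printed in capitals, and both lie on the minus strand of chromosome 11, at chr11:102166995-102167054 and chr11:102167265-102167324 (mm9).
Ubtf brighter probe: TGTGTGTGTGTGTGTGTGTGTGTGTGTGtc
Ubtf dimmer probe: aacgagacgtttcctaccgatctcggctgc
The brighter probe holds 14 TG units in a row over its 60 bases. The array has 49 probes with at least 10 such units, all of them measured, and their ratios ran from -0.41 to 0.14 with a median of -0.020. Their median scaled intensities were 1806 (control) and 1888 (cast), beside 73.7 and 73.2 over all 22032 measured probes. How much of the brighter probe's signal comes from Ubtf RNA was not tested.

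In the wider list of 16 polymerase I subunits and initiation factors, 14 were measured, 8 were above 0, 6 below, and the median was 0.10. Tcof1, the treacle protein that binds Ubtf and the polymerase, had 508 and 713 (0.49, other probe 0.31). Taf1c, a subunit of the promoter selectivity factor, had 62.6 and 83.5 (0.42). The polymerase I subunits outside the naming rule were not raised together. Znrd1 had 308 and 254 (-0.28), and Cd3eap had 94.6 and 94.5 (-0.0017). Twistnb had 309 and 334 (0.11), with -0.076 from its lowest probe. The 13 RNA polymerase II subunits had a median of 0.039 with 7 above 0, and the 10 RNA polymerase III subunits a median of -0.036 with 3 above 0, which turned to 0.043 with median, 0.31 with spike-in and 0.30 with no scaling. With 75th percentile scaling both medians lay nearer to 0 than that of the members. The largest ratios were 0.35 for Polr2c, 0.22 for Polr2k and -0.20 for Polr2m, and 0.79 for Polr3e (other probe 0.28), -0.41 for Polr3d and 0.40 for Polr3c.

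**Figure D3:**
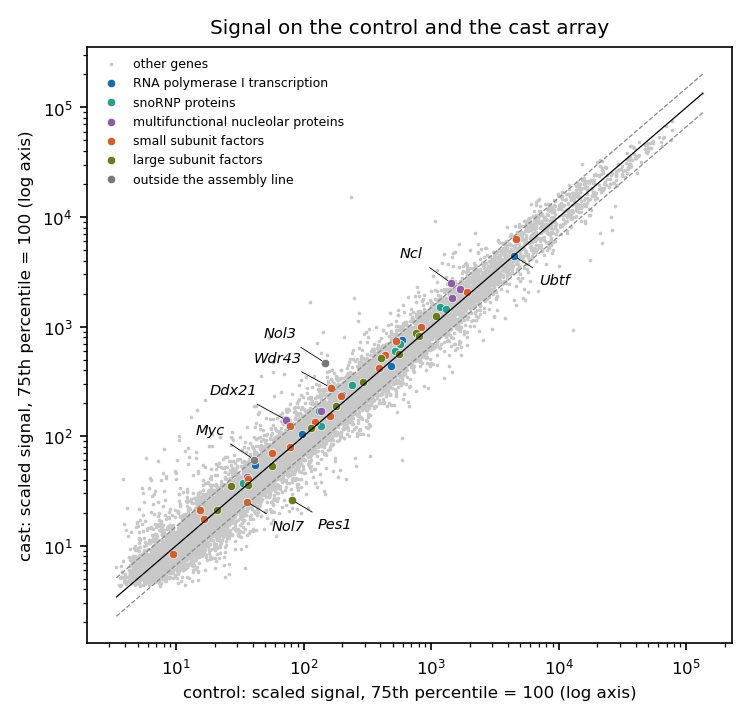
Scaled intensity of each measured gene on the control array (horizontal, log axis) and on the cast array (vertical, log axis), with members coloured by role over all measured genes, a solid line for equal values and dashed lines at 1.5-fold. Members follow the diagonal over the whole range of intensity, with Nol3 above it and Pes1 below it.

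Of the 8 snoRNP genes, 7 lay above 0 and the median was 0.24, with none at 1.5-fold. The box C/D particle, which carries out 2'-O-methylation, had measured members on both sides of 0. Its scaffold proteins were higher on the cast array, Nop58 with 131 and 168 (0.36) and Nop56 with 573 and 699 (0.29, and 0.24 and 0.27 from its other probes). Fbl, the methyltransferase itself, had 137 and 124 (-0.15) on 1 probe. That ratio was smaller than the software's error of 0.20, and turned to 0.20 with spike-in and 0.19 with no scaling. Snu13, from the list of other snoRNP core and assembly factors, gave 0.030 (other probe 0.15). The H/ACA particle, which makes pseudouridine, lay on the higher side throughout. Nhp2 had 1174 and 1497 (0.35), Gar1 518 and 599 (0.21), Nop10 1307 and 1451 (0.15), and the pseudouridine synthase Dkc1 33.4 and 37.4 (0.16). The Nop10 and Dkc1 ratios were, like that of Fbl, smaller than the software's errors (0.20 and 0.21). That of Gar1 only just exceeded its error of 0.20. Nolc1, a chaperone of both particles, gave 0.27 on its brighter probe and -0.16 on its dimmer one. Other snoRNP core and assembly factors, 9 of 10 measured, had a median of 0.030, which turned to -0.028 with quantile and -0.031 with intensity-dependent scaling and to -0.011 with weaker filters, led by Nufip1 (1.11), Znhit3 (-0.49) and Ruvbl2 (-0.44).

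The multifunctional nucleolar proteins had the highest median of the roles with more than 2 measured genes, 0.35, and all 6 measured members were above 0. Ncl, nucleolin, an abundant RNA-binding protein that acts from rDNA transcription to assembly, had 1435 on the control and 2494 on the cast array, a 1.74-fold difference (0.80). Its dimmer probe gave 0.44, so both pointed the same way. Ddx21, an RNA helicase of rRNA transcription and processing, had 72.9 and 140.1, a 1.92-fold difference (0.94). Its other probe had 36.6 and 39.9 (0.12), and the mean of both probes, 0.53, was below 1.5-fold. Npm1, nucleophosmin, the histone chaperone of the granular nucleolus, had 1696 and 2186 (0.37). Its 5 probes all lay above 0, from 0.15 to 0.73. Mybbp1a, a repressor of rRNA synthesis, had 1453 and 1832 (0.33). Gnl3, the GTPase nucleostemin, had 138 and 171 (0.31), and Rrp8, a nucleolar methyltransferase, 36.2 and 42.7 (0.24). Npm3, a relative of Npm1, was above background on the control array only, with raw intensities of 22.0 and 21.4, and no fold is given for it.

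Among the 18 measured small subunit factors, 15 lay above 0 and the median was 0.20. Wdr43, of the subcomplex that joins rDNA transcription to early processing, had 163 and 277, a 1.70-fold difference (0.77), and its other probe gave 0.63. Nop14, a scaffold of the small subunit processome, had 77.8 and 125 (1.60-fold, 0.68) on its only probe, and with normexp background correction its ratio of 0.55 was below 1.5-fold. These were the members of the group past 1.5-fold. Utp11l had 528 and 738 (0.49) and Utp6 4593 and 6249 (0.44), both processome proteins. Utp14a, which recruits the helicase that releases the U3 snoRNA, had 15.5 and 21.2 (0.46), but its dimmer probe gave -0.027. Heatr1 (0.13), Nol11 (0.24), Utp3 (0.24), Rrp12 (0.30), Nol6 (0.15), Utp23 (0.16) and Utp20 (0.086) were nearer 0, as were the U3 partners Imp3 (0.13), Imp4 (0.038) and Rrp9 (159.8 and 152, -0.070). Rrp7a gave 0.34 and 0.38 on its brighter probes and -0.25 on its dimmest. Below 0 were also Utp15, with 9.53 and 8.38 (-0.19), and Nol7, with 35.8 and 25.1 (-0.51, 1.43-fold lower). Utp14b, Utp18 and Nol10 had no array with a signal well above background.

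In the large subunit group 10 of 13 genes were above 0, with a median of 0.055. The PeBoW complex, formed by Pes1, Bop1 and Wdr12 and needed for large subunit maturation, did not show 1 pattern. Bop1 had 407 and 512 (0.33) and Wdr12 56.1 and 53.7 (-0.063). Pes1 had 81.3 and 26.0 on its brighter probe, 3.12-fold lower on the cast array (-1.64), the lowest ratio of all members. The dimmer Pes1 probe had 29.3 and 32.4 (0.14), so its direction is not shared between probes. The probes are printed, 30 bases each, because the Pes1 value turns on which one is read. They lie on the plus strand at chr11:3879948-3880007 and chr11:3873303-3873362 (mm9).
Pes1 brighter probe: AAGTATGTATGGCTCACACTTCcacattgt
Pes1 dimmer probe: attcagttgtgccgtaggctcactgtggag
Capitals mark the first 22 bases of the brighter probe, which recur from its position 39, counted from the 5' end, with 1 mismatch. No other member's probe holds an internal repeat so long, the next being 15 bases in the brighter Ubtf probe. Averaging both Pes1 probes gave -0.75.

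Of the remaining large subunit factors, none reached 1.5-fold on its brightest probe. Nip7, which acts in late nucleolar maturation, gave 0.095 on its brighter probe (291 and 311) and 0.80 on its dimmer one (82.3 and 143). Ebna1bp2 gave 0.019, with -0.18 and 0.21 from its other probes. Nop2, a methyltransferase of the large subunit RNA, had 556 and 558 (0.0043). Rrp1b had 27.1 and 35.0 (0.37), Rrp1 1091 and 1250.3 (0.20, other probe 0.31), and Nol12 753 and 871 (0.21). Nop16 (0.084), Rrp15 (0.055), Nol9 (0.017) and Nol8 (36.5 and 35.8, -0.028) completed the group.

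**Figure D4:**
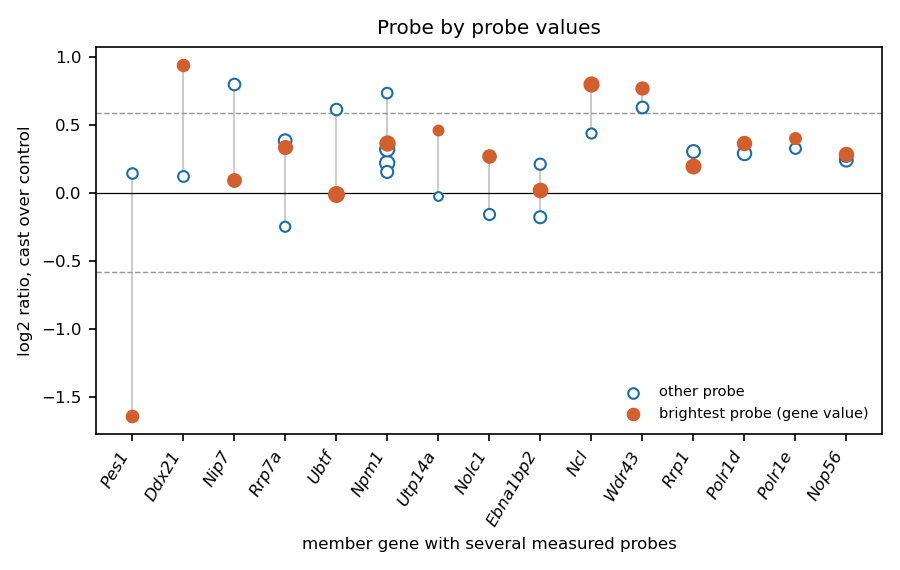
Log2 ratio of cast over control (vertical axis) for each measured probe of the 15 members with several measured probes (horizontal axis), with the brightest probe filled, point size growing with the control intensity, and dashed lines at 1.5-fold. The widest range, 1.79, is that of Pes1, and probes lie on both sides of 0 for 6 of the 15.

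The 15 members with several measured probes show how far a probe can be relied on. All probes shared a direction for 9 of them, beside 72.5% of 3492 genes on the array, and the median range between probes was 0.43, beside 0.18. Replicate spots of a probe were closer, with a median SD of the log2 ratio (spots not paired) of 0.096 over 259 probes. That SD was 0.16 for the dimmest 65 of these and 0.078 for the brightest 65. Against the software's own error of a ratio, with a median of 0.20 for the members, 28 members were higher and 2 lower by more than 1 error. Over all genes 25.1% were higher and 29.5% lower by that measure. By more than 2 errors, 8 members were higher and 2 lower, beside 12.3% and 14.1% of all genes.

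Myc, the transcription factor, had 40.9 and 61.1, a 1.49-fold difference just under the size used here (0.58). It passed that size with median (0.66), quantile (0.62) and intensity-dependent scaling (0.62), as with spike-in (0.93) and no scaling (0.92), and was 0.45 with normexp background correction. Of its partners and antagonists, 8 of 13 were measured, 5 above 0, with a median of 0.051 that turned to -0.17 with no filter on dim probes and to -0.22 among brighter genes. The largest ratios were those of the glucose-responsive branch, Mlxipl with 1421 and 991 (-0.52), Mlxip with -0.45 (other probe 0.21) and Mlx with -0.24. Nol3 shares the name stem but is known as a repressor of apoptosis made in heart and skeletal muscle, not as an assembly factor. It had 148 and 466, the highest ratio of all members (3.16-fold, 1.66), on 1 probe. Nol4 was not well above background with any of its 3 probes. Without Nol3, Nol4 and Myc the median of the members was 0.20.

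Promoters were compared because Myc, with Max, is known to bind the E box CACGTG, which reads the same on both strands. RefSeq windows of 300 bases (250 before and 50 after the start, GRCm38.p6) were found for 48 of the 59 genes. An E box was present for 11 of the 48 (22.9%), measured or not, beside 8.09% of all 27025 genes with a window. Among measured genes, 9 members had an E box and 35 had none in the window, beside a share of 11.3% of 10852 genes. By window the share was 19.0% of 58 for the members, measured or not, beside 7.15% of all 32851. For measured genes it was 9.61% of 13810 windows. Wdr43 and Pes1 are shown as the members with an E box that had the highest and the lowest ratio, from chr17:71615965-71616264 and chr11:3963725-3964024, both on the plus strand, with the E box in capitals.
Wdr43 promoter window: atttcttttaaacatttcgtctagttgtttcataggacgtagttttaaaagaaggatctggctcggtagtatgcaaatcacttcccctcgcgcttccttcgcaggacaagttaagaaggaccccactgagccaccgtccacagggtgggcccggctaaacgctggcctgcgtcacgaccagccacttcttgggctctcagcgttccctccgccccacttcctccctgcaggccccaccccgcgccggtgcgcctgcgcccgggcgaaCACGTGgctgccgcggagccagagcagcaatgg
Pes1 promoter window: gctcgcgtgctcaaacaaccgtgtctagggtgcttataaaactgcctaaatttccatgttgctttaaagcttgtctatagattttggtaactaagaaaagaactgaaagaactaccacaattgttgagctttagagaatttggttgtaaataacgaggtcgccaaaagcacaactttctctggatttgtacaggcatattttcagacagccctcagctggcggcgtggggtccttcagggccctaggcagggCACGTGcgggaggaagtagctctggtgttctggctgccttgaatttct
The 9 measured members with an E box had a median ratio of 0.086, and the 35 without it in the window 0.20. Of these, 7 of the 9 and 28 of the 35 lay above 0, and the difference between the sets was not tested. The others with an E box were Imp4, Mybbp1a, Nol11, Nop2, Rrn3, Rrp7a and Utp20, all measured, and Utp14b and Utp18, which were not.

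Factors of the same pathway outside the naming rule were counted the same way, from lists written with earlier results of these arrays known. Of 97 other assembly and snoRNP factors, 94 were measured, 71 lay above 0 (75.5%) and the median was 0.16. Of the 94, 5 were at least 1.5-fold higher and none 1.5-fold lower, beside 6.96% and 8.29% of all measured genes. Of the 47 measured large subunit factors, 39 were above 0 with a median of 0.21, led by the helicase Ddx27 (143 and 269, 0.92), the methyltransferase Ftsj3 (85.9 and 144, 0.74) and the GTPase Efl1 (102 and 154, 0.60). Of the 38 small subunit factors, 27 were above 0 with a median of 0.15, led by the kinase Riok3 (1117 and 2536, 1.18), Ddx49 (0.48) and Noc4l (0.44). The RNA exosome, which trims precursor RNA, had 8 of 13 subunits above 0 and a median of 0.11, with Dis3 (0.77), Exosc1 (0.52) and Exosc10 (0.43) at the top. Genes of nucleolar stress and rDNA silencing had 7 of 8 above 0 and a median of 0.18, with Suv39h1 (0.43), Kdm2b (-0.36) and Mdm2 (0.32) farthest from 0.

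Among members at or above the median intensity of measured genes, 30 of 35 were above 0 with a median of 0.24, where all genes of that intensity had 0.0074. Below that intensity, 14 of 19 were above 0 with a median of 0.16, where all genes had -0.068.

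**Figure D5:**
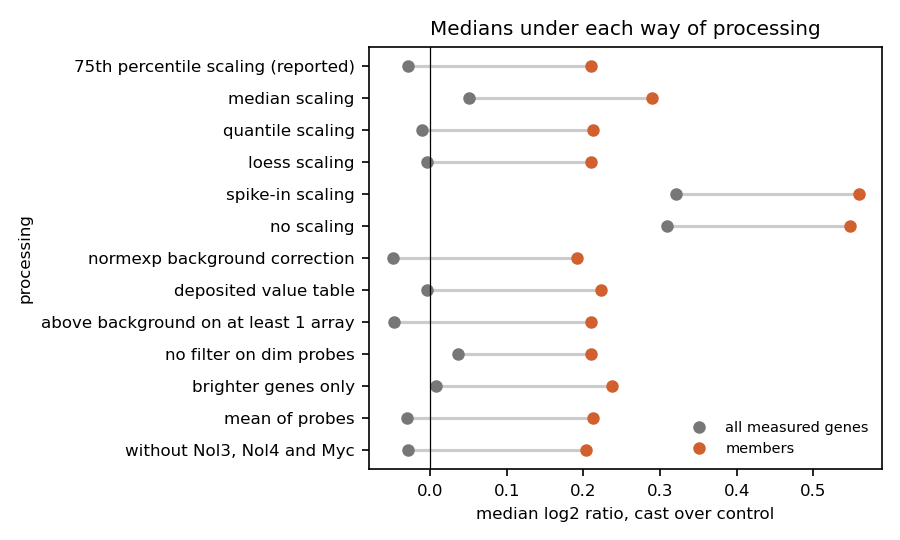
Median log2 ratio of cast over control (horizontal axis) for the members and for all genes under each way of processing (vertical axis). The members' median lies above that of all genes in every row shown, by 0.17 with no filter on dim probes up to 0.26 with genes above background on at least 1 array.

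The tissue label was checked against marker genes. All 8 myofibre markers were measured, and their summed scaled intensity was 370546 on the control and 298924 on the cast array, with 1 of 8 above 0. Other cell types differed between the arrays as well. The fibroblast markers, all 6 below 0, summed to 22431 and 13106, and the endothelial ones, 1 of 5 above 0, to 1132 and 836. Macrophage and leukocyte markers had 4 of 6 measured above 0 (sums 1949 and 1548). Satellite cell markers had 2 of 3 above 0 (376 and 850), with ratios from -0.72 to 1.35 and a median of 0.078. Schwann cell markers had 2 of 5 above 0 (275 and 265) and erythroid markers 2 of 2 (16597 and 19181). Adipocyte markers had 0 of 3 above 0 (628 and 488). Markers of cycling cells, in which ribosome production is high, summed to 367 and 383 over 4 measured genes, 2 of them above 0, while Top2a, Ccnb1 and Cdk1 were not measured. Cd68, Myf5, Lep and Hbb-b1 were not measured either. In RNA of whole muscle, fewer cells of a type and less RNA per cell cannot be told apart, and the part of these shifts in the members' ratios was not tested.

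The arrays were of similar reach. Of 39418 probes, the control array showed 60.6% and the cast array 56.8% well above background, the lowest such intensities being 13.1 and 20.6, with no saturated spot. Both arrays came from 1 slide with 1 scan time, and differed in slide position.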

How the data were processed

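Cy3-labelled cRNA from both pools was hybridised to 1-colour Agilent mouse arrays. Per the submitters' processing notes, the authors extracted the intensity of each spot with Agilent Feature Extraction 9.5, and the processed intensity is background-subtracted and detrended within an array, per the file headers. Probe coordinates are mm9, per the file headers. Exons or UTRs under the probes were not looked up. The deposited table of scaled intensity was used as an alternative only. Here log2 processed intensity was centred on each array's 75th percentile without control spots or spots marked non-uniform, spots of a probe were averaged, and a gene took the value of its brightest probe among those well above background on both arrays, on more than 0.5 of their spots. Probes were named from the files, or through accessions in RefSeq (26048 probes). Sizes of 1.5-fold and 2-fold describe differences and are no test. Python 3.11.15, numpy 2.4.6, pandas 2.3.3 and limma 3.58.1 (normexp, offset 50) were used, and the scripts were tested on simulated data. The members and lists were chosen with earlier results of these data known. Named with full values are polymerase I subunits, Rrn3, Ubtf, Myc, Ncl, Npm1, snoRNP core proteins and the PeBoW complex. So are the 10 highest and 10 lowest members, and members measured on 1 array. Of each list, up to 3 genes with the largest absolute ratio are named, some with the ratio only.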

Additional observations from a re-analysis of the deposited data

How the results depend on the processing

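Over 12 alternatives (5 scalings, normexp background correction, the deposited table, 3 filters on dim probes, the mean of probes, and leaving out Nol3, Nol4 and Myc), the members' median stayed above 0 and above that of all genes. It was 0.56 with spike-in scaling and 0.55 with no scaling, and between 0.19 and 0.29 with the others. Members at least 1.5-fold higher numbered 26 with spike-in scaling, 23 with no scaling, and 3 among the 35 brighter members, where 0 were at least 1.5-fold lower because Pes1 is dimmer. The spike-in controls themselves had a ratio of -0.35 after scaling on the 75th percentile, over 7 controls. With normexp, Utp14a was 0.12. With the mean of probes, Nip7 was 0.45 and Ubtf 0.30. No paired analysis was possible because each group is 1 array of pooled RNA. The spread between mice cannot be seen in pools, spot and probe spread stand in for no biological replicate, and 5 members had no value on both arrays.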
